A study of Homo sapiens with 36 samples.

Results

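Homeobox genes outside the HOX clusters were examined in DU145 cells, a line established from a brain metastasis of a prostate carcinoma. The genes were 58 named members of 15 families, out of 20163 protein-coding genes of the annotation. They were taken as a list of gene names, chosen with earlier results of these data known. Each gene was taken from 2.5 kb upstream of its start to its end on hg19 (GRCh37), and all 58 were found in the annotation. The start is the outermost end of the gene in the annotation, and starts of further transcripts inside the gene were not used. Binding of PHF19, MTF2, EZH2 and SUZ12 and the mark H3K27me3 were measured by ChIP-seq, and the values come from 14 lists of peaks and from 5 tables in which the authors compared binding between groups. The control cells (shCTR) carried a control short hairpin RNA, and the knock-down cells (shPHF19L#4) carried hairpin 4 against the long isoform of PHF19, so every knock-down value rests on 1 hairpin. Each target had 2 replicates per condition, but peak lists of shPHF19L#4 cells were used for H3K27me3 and MTF2 only. The strength of the knock-down was not checked here, because PHF19 peaks of shPHF19L#4 cells and RNA were not analysed here. The word homeobox is loose for part of the PAX family: PAX1 and PAX9 encode paired-box proteins without a homeodomain, and PAX2, PAX5 and PAX8 keep only a part of one.

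Homeobox genes encode transcription factors that set the identity of cells along the body axes and in organ primordia, and in adult epithelia many of them are silent. Many are classical targets of Polycomb repressive complex 2 (PRC2), in which EZH2 is the methyltransferase and SUZ12 a core scaffold subunit. The complex places H3K27me3, the trimethyl mark on histone H3 that goes with silent developmental genes. PHF19 and MTF2 are related Polycomb-like proteins, of which one joins a PRC2 complex at a time, and they bring it to CpG-rich DNA.

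The sequence ahead of the gene is shown for 3 members with peaks of all 5 targets and for DLX2, which had no target in both replicates. Each line gives the 250 bases before the start of the gene in GRCh37, read 5′ to 3′ on the strand of the gene, with every CG in capitals.
PAX5, chr9:37034266-37034515, minus strand: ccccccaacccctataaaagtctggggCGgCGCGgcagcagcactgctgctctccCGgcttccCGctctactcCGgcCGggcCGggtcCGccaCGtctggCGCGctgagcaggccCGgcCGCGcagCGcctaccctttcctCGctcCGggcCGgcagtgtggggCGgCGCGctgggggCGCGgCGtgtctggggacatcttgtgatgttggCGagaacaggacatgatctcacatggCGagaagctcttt
EMX1, chr2:73143139-73143388, plus strand: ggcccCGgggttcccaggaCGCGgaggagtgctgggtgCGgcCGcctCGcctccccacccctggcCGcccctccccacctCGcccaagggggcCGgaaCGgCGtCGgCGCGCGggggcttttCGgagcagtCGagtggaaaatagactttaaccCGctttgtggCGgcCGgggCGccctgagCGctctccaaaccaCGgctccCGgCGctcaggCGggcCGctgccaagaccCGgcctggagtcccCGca
PAX2, chr10:102494903-102495152, plus strand: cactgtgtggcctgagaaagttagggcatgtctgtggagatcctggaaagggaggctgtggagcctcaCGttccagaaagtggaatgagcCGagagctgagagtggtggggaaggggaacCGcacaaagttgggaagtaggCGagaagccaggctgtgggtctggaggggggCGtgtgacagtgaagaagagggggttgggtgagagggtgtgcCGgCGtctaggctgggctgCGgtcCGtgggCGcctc
DLX2, chr2:172967629-172967878, minus strand: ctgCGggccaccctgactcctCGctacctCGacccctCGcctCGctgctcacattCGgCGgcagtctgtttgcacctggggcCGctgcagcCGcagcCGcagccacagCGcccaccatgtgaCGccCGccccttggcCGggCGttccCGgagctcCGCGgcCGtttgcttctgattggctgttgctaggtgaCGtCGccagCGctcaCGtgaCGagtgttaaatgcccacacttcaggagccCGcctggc
The letters CG, which read the same on both strands, occurred 27 times at PAX5, 29 times at EMX1, 10 times at PAX2 and 25 times at DLX2, and the median over all promoters was 14. At least as many CG as at PAX5 were found in 17.9% of 20143 protein-coding promoters of the same length, and the shares were 14.1% for EMX1, 60.5% for PAX2 and 22.3% for DLX2. The window of DLX2 also lies in the gene DLX2-DT. The EMX1 window was overlapped by a peak in each of the 14 lists, and the PAX5 window in each list except those of H3K27me3 replicate 1. The PAX2 window lies ahead of the outermost start, and starts further inside the gene were not examined. It was free of PHF19, EZH2 and SUZ12, whose regions began inside the gene. In shCTR it met no H3K27me3 peak either, and MTF2 in replicate 2 alone. In shPHF19L#4 it met H3K27me3 and MTF2, each in replicate 2 alone. At DLX2, the window met a PHF19 peak in replicate 2 and an MTF2 peak in shPHF19L#4 replicate 2, and no other list.

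The median CpG density of members with PHF19 was close to that of members without. Within 1 kb to each side of the start, the median was 6.05 CG per 100 bases over the 31 members with a region in the PHF19 table and 6.15 over the 27 without. The 14 members with no target in both replicates had a median of 6.97, and all protein-coding genes had 4.50. Among single members, LHX2 with all targets had 1.45 at its outermost start, the lowest of the 58. Starts further inside a gene did not enter any of these densities. At the high end, NKX6-2, outside the PHF19 table, had 14.4 and EN2, in that table, had 14.3.

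The question of the shCTR samples is where the proteins and the mark lay. A gene was called for a target when each of both replicates had a peak sharing at least 1 bp with its interval. By this call, 39 of the 58 members carried H3K27me3, beside 13.1% of all protein-coding genes. PHF19 was called at 27 members (background 3.60%), MTF2 at 25 (5.62%), EZH2 at 20 (2.32%) and SUZ12 at 6 (0.268%). The intervals of the members were mostly short, with a median of 9.6 kb beside 29.7 kb for all protein-coding genes, but 12 members were longer than the latter, among them PAX2, PAX5, PAX7 and LHX2. The authors' table of PHF19 against input, which uses both replicates together, listed 31 members (background 4.64%). The lists differed greatly in size: PHF19 had 1072 peaks in replicate 1 and 14218 in replicate 2, SUZ12 had 1523 and 232, and MTF2 in shCTR had 2516 and 32254. In single lists, PHF19 touched 28 and 39 members, EZH2 21 and 26, SUZ12 7 and 11, H3K27me3 40 and 41, and MTF2 25 and 53. Over all protein-coding genes, the single lists touched 3.78% and 23.4% for PHF19, 3.27% and 5.04% for EZH2, 1.10% and 0.972% for SUZ12, 19.6% and 14.8% for H3K27me3, and 5.86% and 49.5% for MTF2. For SUZ12 and MTF2, replicate 1 touched the fewer members, and without it the counts were 11 and 53. It set the MTF2 call alone, whereas PAX9 had SUZ12 in replicate 1 (6.91%) and lost the call in replicate 2. For SUZ12, replicate 1 was the list with more peaks.

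The 111 other homeobox genes outside the HOX clusters and the 39 HOX genes were counted in the same way, without a test between the lists. Members and lists were chosen with earlier results of these data known, and the part of that choice in their order was not tested. Among the other homeobox genes, 58 carried H3K27me3, 44 MTF2, 27 PHF19, 22 EZH2 and 1 SUZ12. Among the HOX genes, 10 carried H3K27me3, 6 PHF19, 2 MTF2, 1 EZH2 and none SUZ12. None of 15 housekeeping genes and none of 11 genes of PRC2 subunits and partners was called for any target in both replicates. Of 10 genes of epithelial cells, 2 were called for PHF19, 2 for H3K27me3 and 1 for MTF2.

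**Figure D1:**
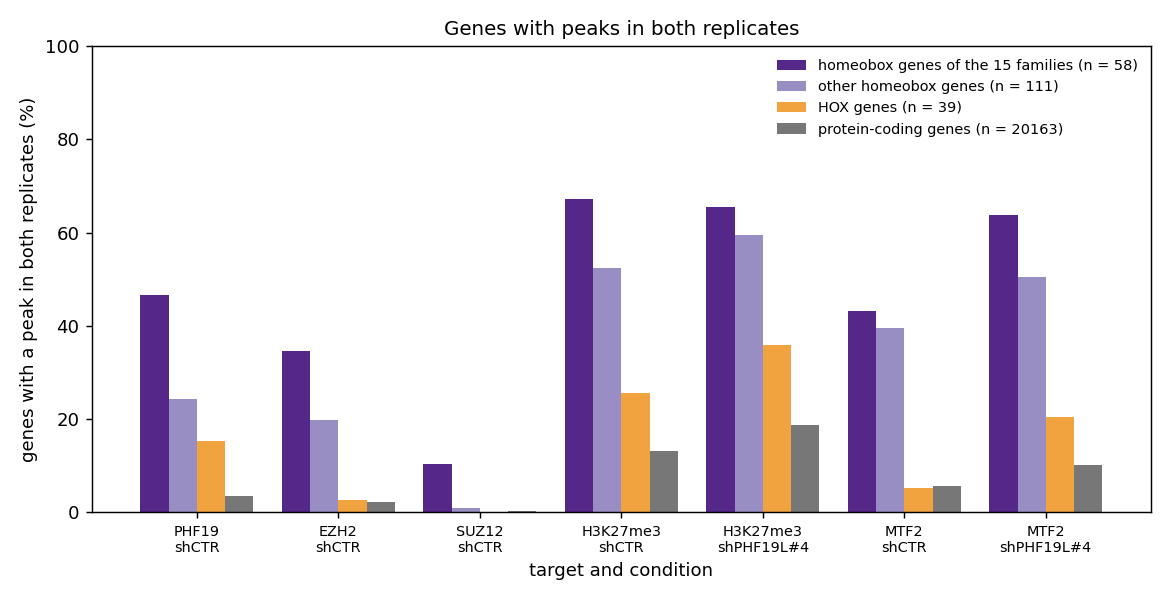
Bars give the share of genes (%) with a peak in both replicates for each target and condition, for the 58 homeobox genes, 111 other homeobox genes, 39 HOX genes and 20163 protein-coding genes. The 58 genes stand highest in every group of bars, from 10.3% for SUZ12 to 67.2% for H3K27me3 in shCTR.

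The calls of EZH2, MTF2 and SUZ12 were nested in those of H3K27me3. All 20 members with EZH2 carried H3K27me3, as did 98.1% of the 467 protein-coding genes with EZH2. All 25 members with MTF2 carried the mark, beside 84.1% of the 1134 genes with MTF2, and the 6 members with SUZ12 had EZH2, beside 53 of 54 genes. The reverse did not hold. Of the 39 members with H3K27me3, 19 lacked EZH2 and 14 lacked MTF2. Of the 2640 protein-coding genes with the mark, 2182 lacked EZH2 and 1686 lacked MTF2. Of the 31 members in the PHF19 table, 29 carried H3K27me3 (93.5%), 24 MTF2 (77.4%), 20 EZH2 (64.5%) and 6 SUZ12 (19.4%). Over the 936 protein-coding genes in that table the shares were 88.1% for H3K27me3, 68.6% for MTF2, 43.9% for EZH2 and 5.66% for SUZ12. Of the 27 members outside that table, 10 carried H3K27me3 (beside 9.44% of the protein-coding genes outside it), 1 carried MTF2 (beside 2.56%) and none EZH2 (0.291%) or SUZ12. Counted per gene, 6 members had all 5 targets, 14 had 4, 3 had 3, 4 had 2, 14 had 1 and 17 had none. For comparison, 52 of the 20163 protein-coding genes had all 5, and 17271 (85.7%) had none, against 29.3% of the members.

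Members with 4 or 5 targets included 5 of the 10 LIM genes, 4 of the 8 PAX genes and both EMX genes. The others were NKX2-2, NKX2-3, DLX1, DLX3, IRX3, IRX5, EN2, MSX1 and ALX4. The share of all protein-coding genes with 4 or 5 targets was not taken. The covered share, which is the part of a gene's interval that lies under peaks, sets members of different length on 1 scale. Over the 58 members its mean for H3K27me3 was 42.9% in shCTR replicate 1 and 28.5% in replicate 2, beside 5.07% and 2.29% over all protein-coding genes. For PHF19 the means were 11.3% and 22.6%, beside 0.369% and 1.70%.

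**Figure D2:**
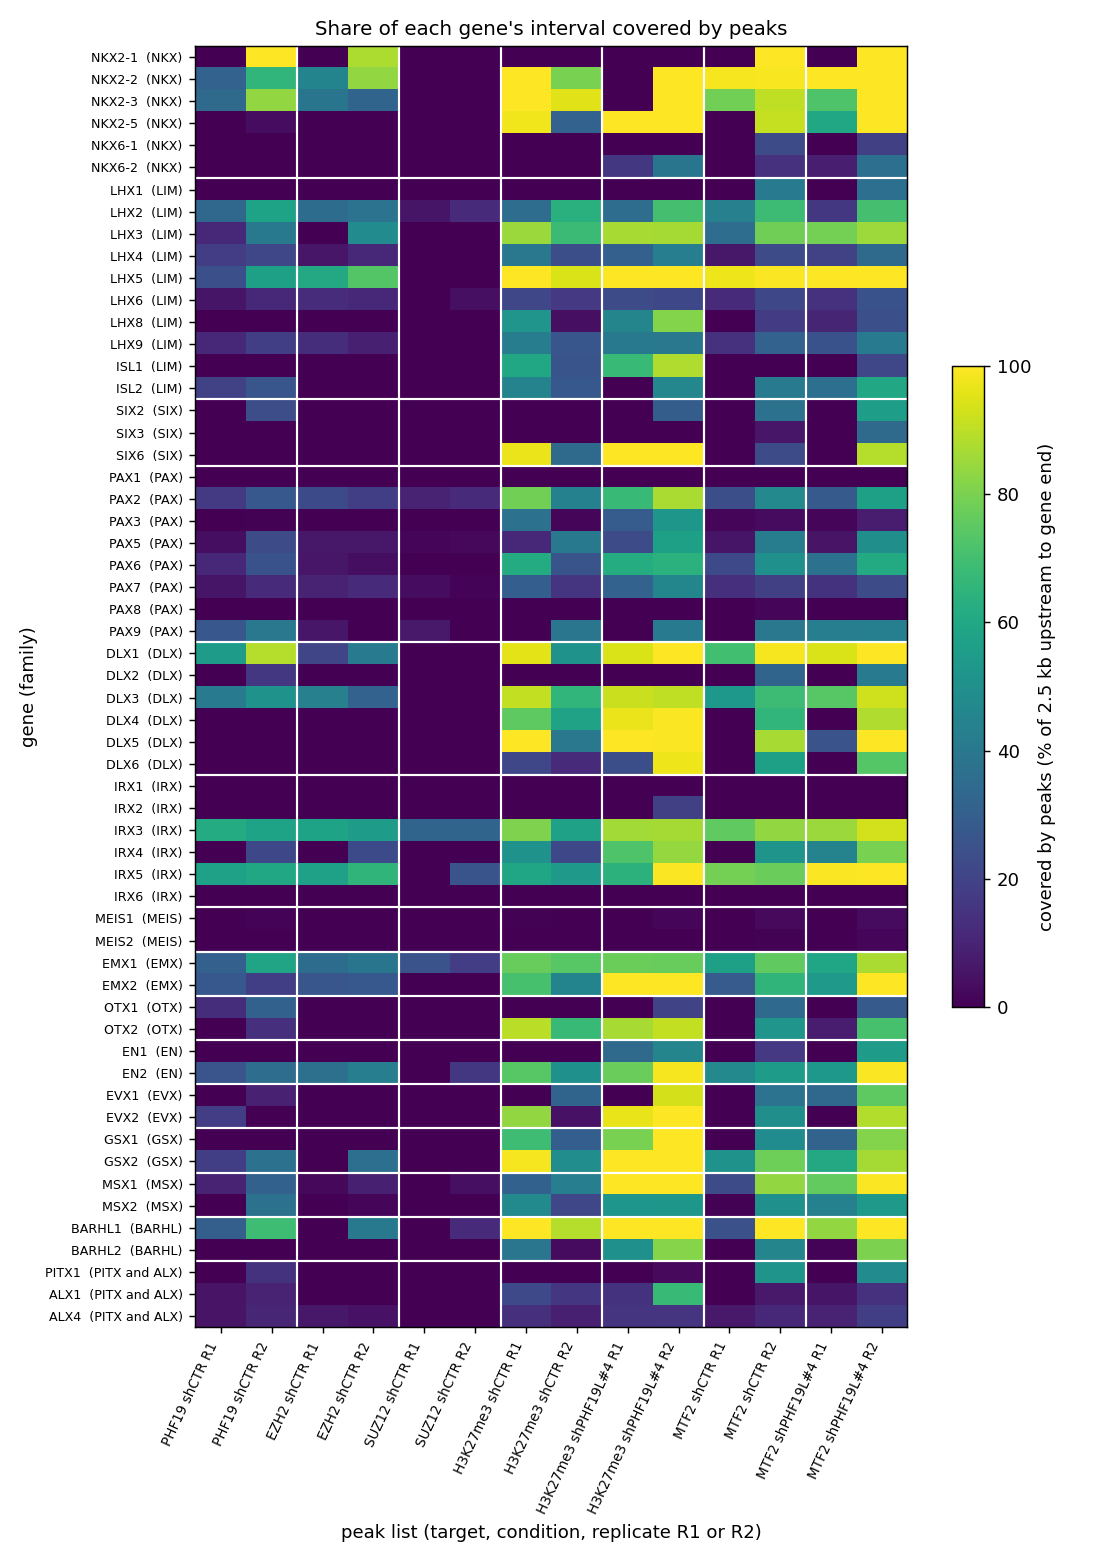
Each row is 1 of the 58 genes, ordered by family, each column is 1 of the 14 peak lists, and the colour gives the share of the interval of the gene that peaks cover (%). Bright rows such as LHX5 and dark rows such as PAX1 or IRX6 stand side by side within families, and the SUZ12 columns are nearly empty.

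The 6 members with every target were PAX2, PAX5, PAX7, LHX2, IRX3 and EMX1. PAX5, the regulator of B cell commitment, had the highest PHF19 level of all members. Levels are compared here as the authors' mean log2 read concentration of a region minus the log2 of its width in kb. In this unit the PHF19 region over the PAX5 start, chr9:37033519-37038691, stood at 8.31 in shCTR and at 4.39 in input. EMX1, which acts in the developing cerebral cortex, followed with 7.13 against 3.80 in the region chr2:73140137-73148859. IRX3 had 6.34, PAX2 had 6.11, LHX2 had 5.83 and PAX7 had 5.71. The median of the 31 listed members was 5.47, that of the 936 listed protein-coding genes 5.31, and the lowest member was OTX2 with 4.69. All 3 PAX genes of this group had several PHF19 regions, 5 in PAX5, 4 in PAX7 and 3 in PAX2.

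SUZ12, the scarcest target, covered 32.3% and 32.1% of the IRX3 interval in replicates 1 and 2, and 25.6% and 18.3% of the EMX1 interval. The share of IRX3 was the highest among members in both replicates, and in replicate 2 IRX5 came next with 26.1%. At PAX5, 203.5 kb long, SUZ12 covered 1.40% and 2.31%, EZH2 6.63% and 6.60%, and PHF19 3.68% and 23.1%. H3K27me3 covered 11.3% and 40.3% of PAX5, the reverse of the order at most members with peaks in both lists, where replicate 1 covered more.

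**Figure D3:**
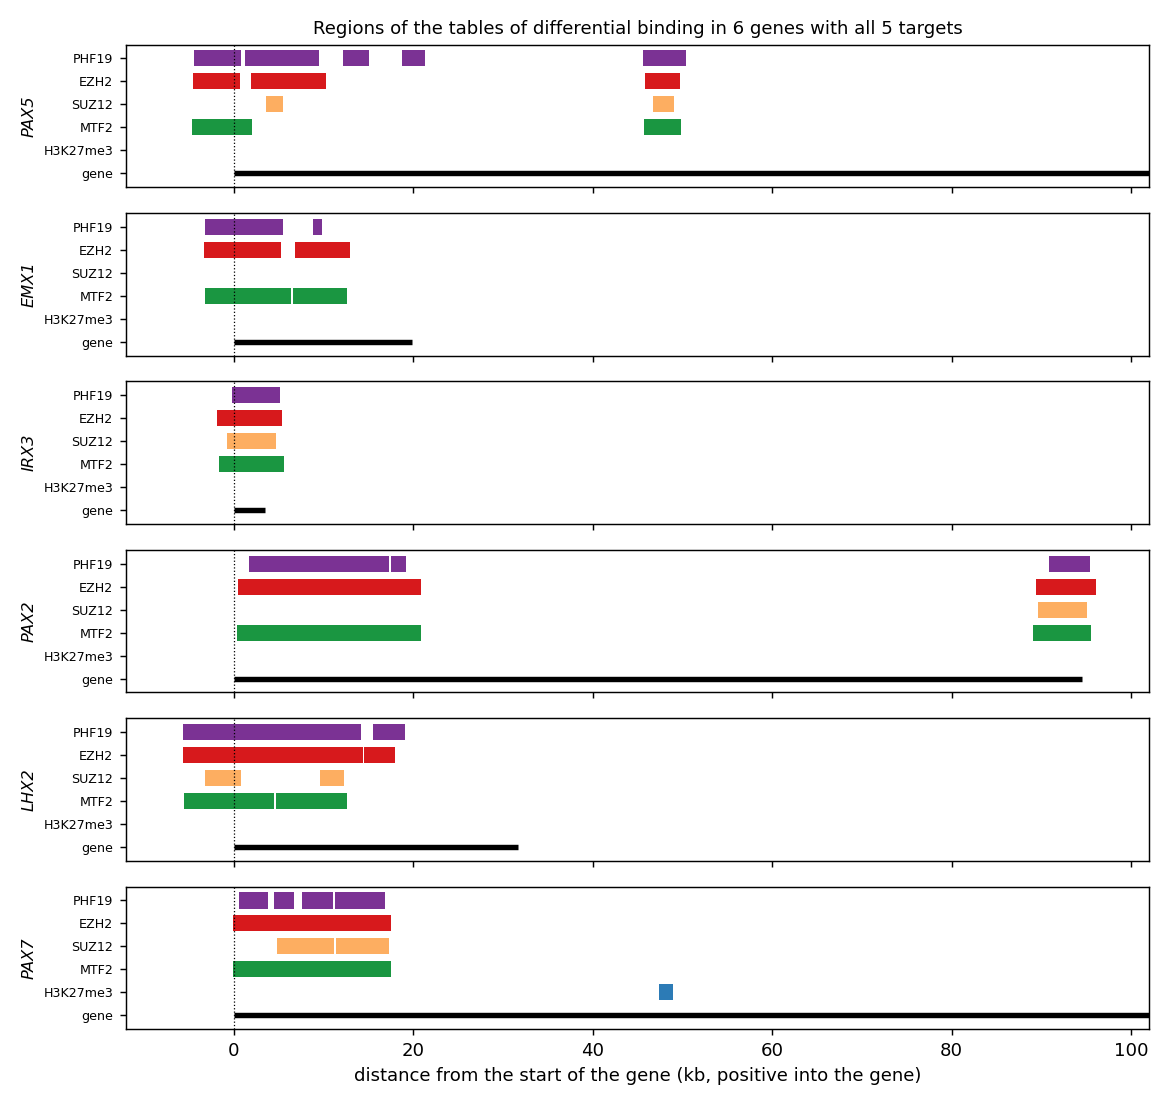
Bars show the regions that each authors' table lists along the 6 genes with all targets, by distance from the start of the gene (kb, positive into the gene), and the black line is the gene, drawn as far as the axis reaches. PHF19, EZH2 and MTF2 regions lie on top of each other at the start or just downstream of it, PAX5 and PAX2 carry a further group far inside, and the H3K27me3 table holds a region for PAX7 alone.

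At the members, PHF19 regions often missed the start as defined here, the outermost end of the gene. Starts of further transcripts were not examined, so a region inside a gene may still lie at such a start. The 58 members gathered 48 different PHF19 regions with a median width of 3368 bp, beside 2298 bp for all 1245 regions of the table. In each of the 31 listed members, the region with the highest concentration was located, and its midpoint lay a median of 2257 bp from the start. It covered the annotated start in 16 of 31 members. Neither value was taken over all listed protein-coding genes, so a difference of the members from them is not shown. At PAX7, chr1:18968588-18974156 lay wholly inside the gene and touched none of its exons. At MSX1, chr4:4856165-4859547 lay upstream of the gene, and MSX2 and NKX2-5 likewise had it upstream. At DLX1, chr2:172946897-172949786 reached into METAP1D as well, so the region has more than 1 candidate gene. The regions of PAX6 and GSX2 also met a further protein-coding gene, and those of several other members met non-coding genes. In shCTR, EZH2 peaks overlapped 29 of the 48 regions in replicate 1 and 37 in replicate 2, H3K27me3 peaks 40 and 47, MTF2 peaks 35 and 48, and SUZ12 peaks 6 and 13. As shares of the 48 regions, EZH2 overlapped 60.4% and 77.1%, beside 45.2% and 57.1% of all PHF19 regions of the table. For H3K27me3 the shares were 83.3% and 97.9%, beside 87.9% and 87.3%, for MTF2 72.9% and 100%, beside 61.2% and 94.8%, and for SUZ12 12.5% and 27.1%, beside 8.51% and 14.4%.

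The PAX genes, which pattern neural tube, kidney, eye and thyroid, fell into clearly unlike groups. Besides PAX2, PAX5 and PAX7, the eye and pancreas regulator PAX6 carried PHF19, EZH2, H3K27me3 and MTF2. PHF19 covered 11.7% and 25.3% of PAX6 in the 2 shCTR replicates, and MTF2 covered 22.1% and 50.3%. PAX3, of the neural crest, had H3K27me3 (37.4% and 1.18%) and a little MTF2 (1.38% and 2.74%) without PHF19 in the table. PAX9 had PHF19 in both replicates (27.1% and 39.9%), but H3K27me3 in replicate 2 only (39.3%). Its PHF19 level per kb was 6.08, and its input level of 5.13 was the highest of the 31 members, whose median input was 3.80, so PHF19 exceeded input there by 0.95, the smallest excess of the listed members. PAX8, the thyroid and kidney factor, met 1 list alone, MTF2 in shCTR replicate 2 with 1.31% covered, and PAX1 met none of the 14.

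Of the 10 LIM homeobox genes, which specify neurons and limb and pituitary cells, 9 carried H3K27me3 in both shCTR replicates, and LHX1 was the exception. LHX9, of gonad and limb development, had the highest PHF19 level per kb of the family in the region used for each gene, 5.90 at chr1:197884699-197887818. That region is the one with the highest mean of shCTR and input, and a further region of LHX4, chr1:180196899-180199351, stood higher in shCTR, at 6.39 per kb. LHX5 was the most fully covered, with H3K27me3 over 100% and 94.5% of its interval, MTF2 over 97.5% and 99.6%, and EZH2 over 60.4% and 73.4%. The motor neuron gene ISL1 had H3K27me3 (60.1% and 25.8%) and no PHF19, EZH2, SUZ12 or MTF2 peak in any shCTR list. Its relative ISL2 had H3K27me3 (44.7% and 27.4%) with PHF19 (19.9% and 26.6%).

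Neighbouring genes of 1 family often differed. The IRX genes, which pattern heart, limb and neural tissue, lie in clusters on chromosomes 5 and 16. On chromosome 16, IRX3 and IRX5 were among the most occupied members, and IRX6, 390 kb beyond IRX5 with no protein-coding gene between them, met no peak in any of the 14 lists. PHF19 covered 61.4% and 57.9% of IRX3 and 57.3% and 60.0% of IRX5, so the replicates were close. IRX5 had the highest PHF19 level of the family, 6.77 per kb at chr16:54964725-54971676. On chromosome 5, IRX4 carried H3K27me3 (51.2% and 21.5%), IRX2 met H3K27me3 in shPHF19L#4 replicate 2 alone (18.9%), and IRX1 met no list.

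The DLX genes of forebrain and craniofacial development lie in facing pairs. DLX1 carried PHF19 over 55.1% and 88.7% of its interval and H3K27me3 over 96.0% and 51.3%, while DLX2, 9.76 kb away, had no H3K27me3 in any of the 4 lists. DLX3 carried PHF19 (41.2% and 51.0%) and H3K27me3 (90.9% and 66.0%). Its neighbour DLX4, 15.0 kb away, carried H3K27me3 (75.3% and 57.8%) without PHF19 or EZH2. DLX5 and DLX6, 9.36 kb apart, both carried H3K27me3 without PHF19 or EZH2 peaks, over 100% and 40.0% of DLX5 and over 21.4% and 11.8% of DLX6. No region of any table was shared between members, and no intervals of members overlapped.

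Genes of head and brain patterning also split within families. EMX1 and EMX2 both carried PHF19, EZH2, H3K27me3 and MTF2. EN2 carried the same 4 targets, with H3K27me3 over 74.1% and 50.3%, and its relative EN1 had no H3K27me3 peak in shCTR. OTX1 had PHF19 in both replicates (13.1% and 31.0%) and no H3K27me3 in shCTR, and of the 31 members in the PHF19 table only OTX1 and PAX9 lacked a call for the mark. OTX2 had H3K27me3 (89.6% and 67.5%) and PHF19 in replicate 2 only. GSX2, with PHF19 at 4.78 per kb, and GSX1 both carried H3K27me3, and so did BARHL1 and BARHL2, of which BARHL1 alone had PHF19 (5.30 per kb).

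Among the NKX genes, NKX2-2 of the ventral neural tube and NKX2-3 of gut and spleen carried 4 targets each, and NKX2-3 had the highest PHF19 level of the family, 5.40 per kb. H3K27me3 covered 100% and 79.8% of NKX2-2 and 100% and 95.6% of NKX2-3. NKX2-1, the lung and thyroid regulator 136 kb from PAX9, had no H3K27me3 peak in any of the 4 lists, yet PHF19 covered 100% of it in replicate 2 and none in replicate 1. In the same way EZH2 covered 0 and 87.6% of NKX2-1 and MTF2 0 and 100%, so in the peak lists each of these targets rested on replicate 2. The authors' EZH2 table nevertheless listed NKX2-1, with 5.80 per kb in shCTR, the fifth highest of 37 listed members, and 6.69 in shPHF19L#4. In the MSX pair of limb and craniofacial development, MSX1 carried 4 targets and had PHF19 at 5.78 per kb, and MSX2 carried H3K27me3 and MTF2. ALX4 carried 4 targets, and ALX1 carried PHF19 (5.47 per kb) and H3K27me3. EVX2, next to the HOXD genes, carried H3K27me3 (83.6% and 5.05%) without a both-replicate call of any other target. Among SIX2, SIX3 and SIX6, the eye and pituitary gene SIX6 alone was called, for H3K27me3 alone (96.9% and 34.7%).

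In shCTR, 29.3% of the members and 85.7% of all protein-coding genes had no target in both replicates. No target was called in both replicates of either condition at 14 members. These were DLX2, IRX1, IRX2, IRX6, LHX1, MEIS1, MEIS2, NKX2-1, NKX6-1, PAX1, PAX8, PITX1, SIX2 and SIX3. Of them IRX1, IRX6 and PAX1 met no peak in any of the 14 lists. At the other 11, every peak was in a list of replicate 2, such as MTF2 over 5.91% of SIX3 in shCTR, except for 1 H3K27me3 peak at MEIS1. MEIS1 and MEIS2, cofactors of HOX proteins and the only family with no call, had at most 2.75% of their interval covered in any list. That peak of shCTR replicate 1 covered 0.435% of MEIS1. The absence of a peak reflects the threshold of the peak caller and does not give a level of 0.

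The knock-down samples ask how occupancy changes when PHF19L is depleted. For EZH2, SUZ12, H3K27me3 and MTF2 the authors' tables give the mean log2 concentration of each region in shCTR and in shPHF19L#4. These 4 tables carry 2 header lines, of which the first names the second group input and the other, directly above the values, names it the knock-down, and the knock-down was read here. The paper describes these comparisons as control against knock-down and reports a gain after the knock-down for each target compared. In the PHF19 table, whose second group is input, that group lay below shCTR in all 1245 regions. In the EZH2 table the second group lay above shCTR in 2407 of 2408 regions. Every difference taken from the 4 knock-down tables rests on that reading of the header. They list only regions under the authors' unadjusted P value threshold and no value per replicate, so the difference shPHF19L#4 minus shCTR is a description without an error, and a gene outside a table is not shown to be unchanged. In these tables EZH2 was higher in shPHF19L#4 at 37 of the 58 members, beside 9.54% of all protein-coding genes, and lower at none. MTF2 was higher at 36 members (background 9.01%, and 9.02% listed in either direction) and SUZ12 at 16 (2.44%), and neither was lower at any member. H3K27me3 was higher at 5 (3.53%). This direction was that of nearly all listed regions, since 2407 of 2408 EZH2 regions, all 508 SUZ12 regions, 1048 of 1049 H3K27me3 regions and 2539 of 2546 MTF2 regions lay above 0.

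For each gene the region with the highest mean concentration was used. The median difference over listed members was 1.02 for EZH2, 0.90 for SUZ12, 1.08 for H3K27me3 and 0.79 for MTF2 on the log2 scale. Over all listed protein-coding genes the medians were 1.21, 0.97, 1.12 and 0.89. Each median of the members was below that of all listed genes, and these gaps were not tested. The EZH2 differences of members ranged from 0.60 to 1.34, those of MTF2 from 0.49 to 1.19 and those of SUZ12 from 0.62 to 1.06. At 32 of the 34 members in both tables the EZH2 difference exceeded the MTF2 difference, by a median of 0.22, but the tables were normalized separately. The medians over all listed protein-coding genes, 1.21 for EZH2 and 0.89 for MTF2, stood in the same order.

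**Figure D4:**
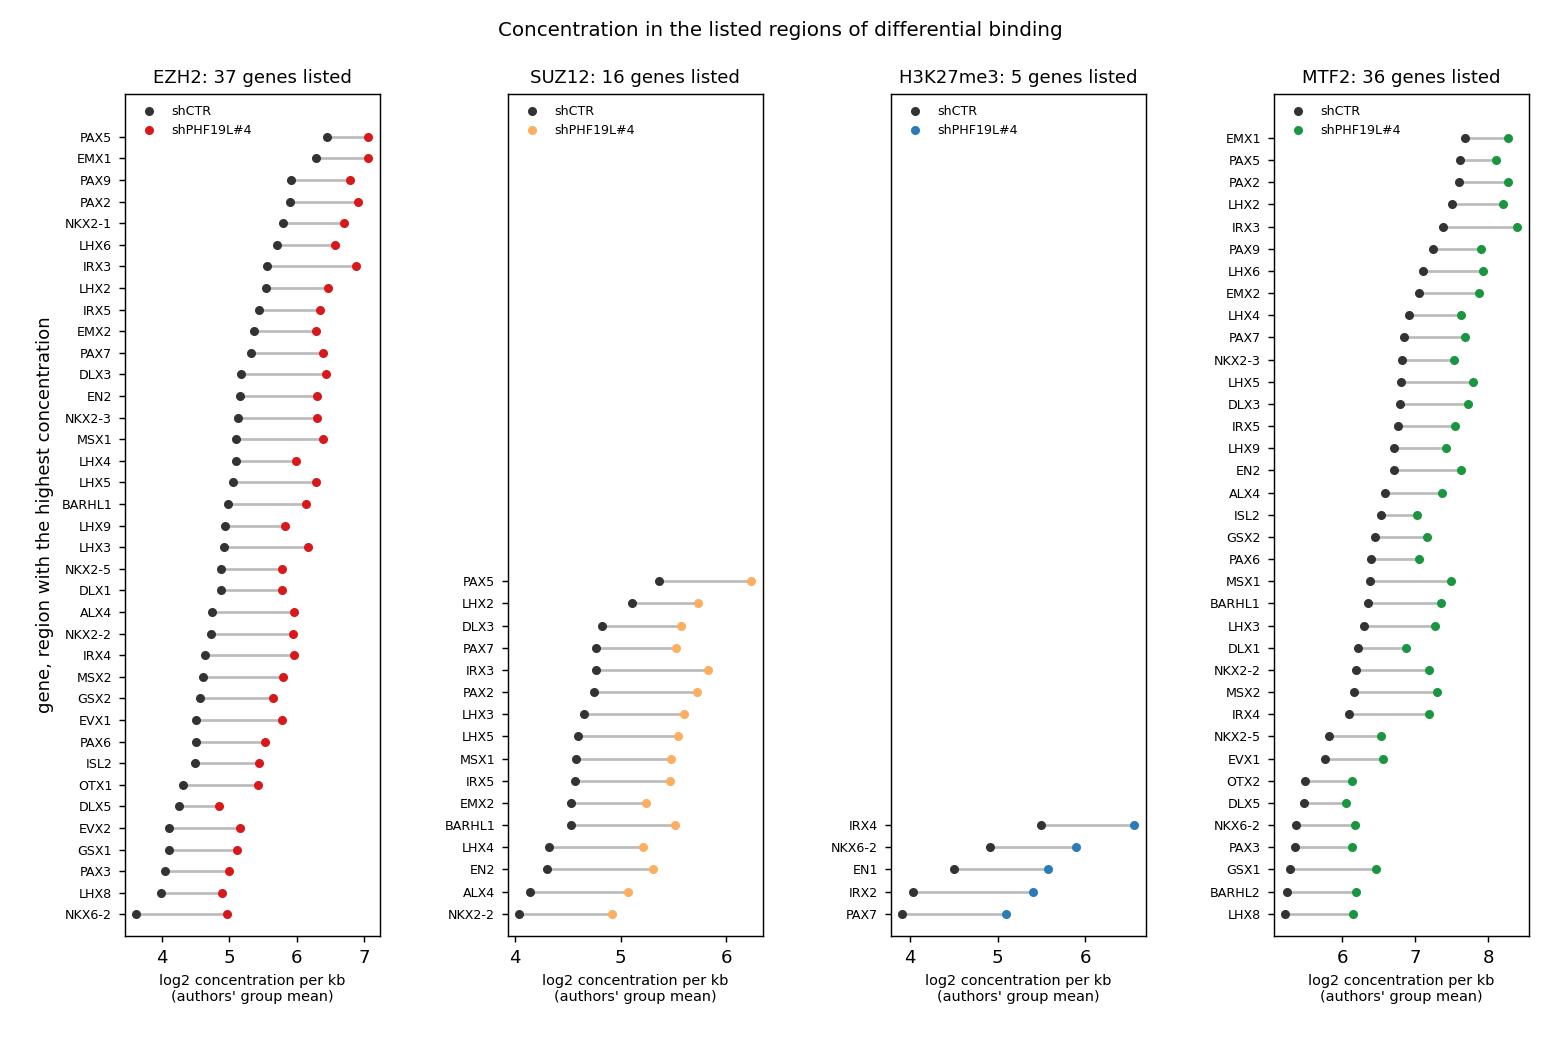
For each listed gene a black point gives the authors' mean log2 concentration per kb in shCTR and a coloured point that in shPHF19L#4, in the region with the highest concentration, with genes ordered by the shCTR value. In all 4 panels every coloured point lies to the right of its black point, and the gap is narrowest for EZH2 at DLX5 (0.60) and widest at NKX6-2 (1.34).

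NKX6-2, of the ventral neural tube and oligodendrocytes, had the largest EZH2 difference in the region used for each gene, from 3.62 to 4.96 per kb at chr10:134600134-134602746. Its EZH2 level per kb in shCTR was the lowest of the 37. IRX3 went from 5.56 to 6.88 and IRX4 from 4.63 to 5.95, both a difference of 1.32. At the other end were EMX1 (6.28 to 7.05, difference 0.77), PAX5 (6.44 to 7.06, difference 0.62) and DLX5 (4.25 to 4.85, difference 0.60). PAX5 and EMX1 had the highest PHF19 and EZH2 levels per kb in shCTR and small EZH2 differences in these regions. At PAX5 the difference depended on the region, since the 2 further EZH2 regions inside the gene differed by 0.96 and 1.06. At EMX1 the further region differed by 0.81. At MSX1, a further region over the start, chr4:4860191-4864356, differed by 1.53, which exceeds the value of NKX6-2.

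In the same choice of region, MTF2 differed most at GSX1, from 5.28 to 6.47 per kb (difference 1.19), at MSX2, from 6.17 to 7.30 (1.13), and at MSX1, from 6.38 to 7.49 (1.11). The smallest MTF2 differences were at DLX5 (0.57), ISL2 (0.50) and PAX5 (0.49), where MTF2 went from 7.62 to 8.11, and further regions of PAX6 (0.41) and ISL2 (0.43) differed by less. SUZ12 differed most at IRX3, from 4.77 to 5.83 (1.06), at EN2 (1.01) and at BARHL1 (0.99), and least at DLX3 (0.75), EMX2 (0.71) and LHX2 (0.62). At LHX2 the SUZ12 value depended on the region. The region over the start differed by 0.62, and a further one, chr9:126773602-126776201, by 1.35. EMX1, with SUZ12 peaks in both shCTR replicates, was not in the SUZ12 table.

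Across the 29 members in both the PHF19 and the EZH2 table, the PHF19 level per kb and the shCTR EZH2 level per kb had a Pearson's r of 0.77 and a Spearman's rho of 0.66. For MTF2 they were 0.73 and 0.75 over 29 members, and for SUZ12 0.69 and 0.57 over 16. Against the EZH2 difference, the PHF19 level had an r of -0.59 and a rho of -0.51, against the MTF2 difference -0.41 and -0.35, and against the SUZ12 difference -0.01 and -0.18. These values run across genes that share the cells and often overlapping regions, and the difference contains the shCTR level, so they are descriptions. Of the member regions in the EZH2 table, 36 of 51 (70.6%) overlapped a PHF19 region, beside 37.1% of the whole table, and for MTF2 34 of 48 (70.8%), beside 34.2%. Members outside the PHF19 table were listed too: 8 for EZH2, with a median difference of 0.97 beside 1.06 for the 29 with PHF19, and 7 for MTF2, with 0.81 beside 0.78.

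The H3K27me3 table listed 5 members. IRX2 had the largest difference, from 4.03 to 5.40 per kb (1.37), at chr5:2752715-2757277 upstream of the gene. PAX7 followed with 1.19, in a region centred 48150 bp into the gene and away from its PHF19 regions. EN1 had 1.08, IRX4 1.07 and NKX6-2 0.98. Of these 5, only PAX7 and IRX4 were in the PHF19 table. A PHF19 region overlapped 1 of the 5 H3K27me3 regions (20.0%), beside 3.15% of all regions of the H3K27me3 table. IRX2, EN1 and NKX6-2 had no H3K27me3 peak in either shCTR list.

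H3K27me3 peak lists of both conditions allow the members to be followed in each replicate. The call in both replicates held at 39 members in shCTR and at 38 in shPHF19L#4 (background 13.1% and 18.7%). Of these, 36 were called in both conditions. EN1 and NKX6-2 were called in shPHF19L#4 alone, and ISL2, NKX2-2 and NKX2-3 in shCTR alone. Over all protein-coding genes, 1298 were called for H3K27me3 in shPHF19L#4 alone and 173 in shCTR alone. The replicates differed in how many members were higher. By the number of covered bases, replicate 1 was higher in shPHF19L#4 at 27 members, lower at 14 and equal at 17. Replicate 2 was higher at 48 and lower at none. Over all 20163 protein-coding genes, replicate 1 was higher at 1876 and lower at 2480, the opposite balance. Replicate 2 was higher at 5808 of them and lower at 70. Coverage was higher in both replicates at 27 members and lower in both at none, beside 1810 and 28 of all protein-coding genes. Both shPHF19L#4 lists exceeded both shCTR lists at 25 members, beside 8.29% of all protein-coding genes. With covered shares rounded to 3 digits these were 24 members and 8.20%, since BARHL1 gained 3 bases in replicate 1. The mean over members went from 42.9% to 42.7% in replicate 1 and from 28.5% to 58.9% in replicate 2. The lists themselves changed in size, from 39254 to 35128 peaks in replicate 1 and from 15994 to 57026 in replicate 2, and the mean over all protein-coding genes from 5.07% to 4.84% and from 2.29% to 7.77%. The part of list size in the member values was not tested.

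NKX2-2 and NKX2-3 show the gap between replicates at its widest. At both, H3K27me3 covered 100% of the interval in shCTR replicate 1 and none in shPHF19L#4 replicate 1, but 79.8% and 95.6% in shCTR replicate 2 and 100% in shPHF19L#4 replicate 2. At ISL2 the values were 44.7% and 0 in replicate 1, and 27.4% and 46.2% in replicate 2. EN1 went from 0 to 34.6% in replicate 1 and from 0 to 45.7% in replicate 2, and NKX6-2 from 0 to 16.4% and from 0 to 38.9%. EN1 and NKX6-2 are 2 of the 25 members at which the conditions did not overlap.

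**Figure D5:**
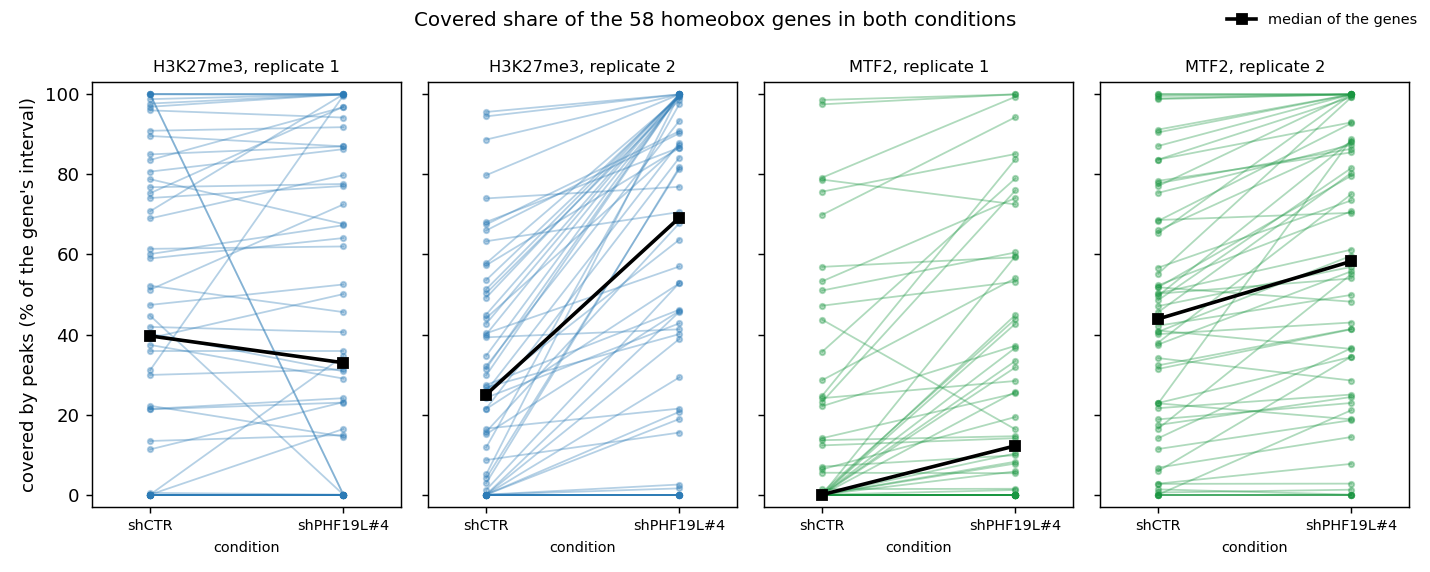
Lines join the covered share (% of the interval of the gene) of each of the 58 genes in shCTR and shPHF19L#4, for H3K27me3 and MTF2 in each replicate, and black squares give the median. For H3K27me3 the median went from 39.7% to 33.0% in replicate 1 and rose to 69.2% in replicate 2, and for MTF2 it was higher in shPHF19L#4 in both.

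MTF2, the other Polycomb-like protein, was higher in both replicates at many members. It was called at 25 members in shCTR and at 37 in shPHF19L#4, beside 5.62% and 10.2% of all protein-coding genes. All 25 were among the 37. The 12 members called in shPHF19L#4 alone were ALX1, BARHL2, DLX5, EVX1, GSX1, IRX4, ISL2, LHX8, NKX2-5, NKX6-2, OTX2 and PAX9. Over all protein-coding genes, 1040 were called in shPHF19L#4 alone and 117 in shCTR alone. The covered share was higher in shPHF19L#4 at 34 members and lower at 3 in replicate 1. In replicate 2 it was higher at 47 and lower at 6, with 33 members higher in both. Over all 20163 protein-coding genes, covered bases were higher at 1940 and lower at 316 in replicate 1. In replicate 2 they were higher at 7296 and lower at 4881, with 1596 genes higher in both. Both shPHF19L#4 lists exceeded both shCTR lists at 7 members (background 2.18%, or 2.16% with rounded shares), among them IRX3, IRX5 and LHX5. The mean over members went from 16.7% to 27.8% and from 44.7% to 57.5%, and over all protein-coding genes from 0.745% to 1.58% and from 5.69% to 6.82%. Replicate 1 decided the calls in both conditions, since MTF2 of replicate 2 touched 53 members in each condition, and with them 49.5% and 51.0% of all protein-coding genes. The MTF2 lists went from 2516 to 4216 peaks in replicate 1 and from 32254 to 34623 in replicate 2, and the part of list size in these values was not tested.

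IRX4 is an example of the 12, with MTF2 over 0 and 51.8% of its interval in the shCTR replicates and over 44.9% and 79.7% in shPHF19L#4. At NKX2-5, a heart regulator, the values were 0 and 91.2%, then 59.6% and 100%. At MSX1, called in both conditions, MTF2 went from 23.2% to 76.0% in replicate 1 and from 83.7% to 99.3% in replicate 2. LHX2 went the other way in replicate 1, from 43.7% to 16.3%, and from 68.6% to 70.4% in replicate 2. Its MTF2 concentration in the authors' table was nevertheless higher in shPHF19L#4, 8.21 against 7.51 per kb.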

How the data were processed

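ChIP-seq of 5 targets in DU145 cells was read from 14 peak lists and 5 tables. The authors mapped reads with Bowtie to hg19 (with the fly genome for spike-in samples) and ran MACS per replicate with the matching control. The score in the deposited lists is the authors' MACS score, or tags for PHF19 replicate 1, and MTF2 replicate 1 holds positions only. The log2 values in the deposited tables are the authors' DiffBind group means. Methods name no spike-in scaling for DiffBind, and the lists carry none. The tables' fold, p-value and FDR are the authors' own comparison and were read only to check the P value filter and that the fold equals the difference of the group means. No list holds read totals, so sequencing depth is unknown.

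Genes came from GENCODE release 44 lifted to GRCh37, whose chromosome lengths held all 249108 peaks and regions. Overlaps (at least 1 bp), covered shares and differences were computed in Python 3.11.15 (pandas 2.3.3, numpy 2.4.6), correlations with scipy 1.17.1 and figures with matplotlib 3.10.9, and tested on simulated data. Levels per gene come from the region with the highest mean concentration. Members and lists (other homeobox, HOX, housekeeping, epithelial and PRC2 genes) were chosen with earlier results of these data known. Genes were named by a rule: the highest PHF19 level (or H3K27me3 score) per family, all or no targets, the 3 largest and smallest differences, and calls that differ between conditions (up to 10). Other genes named were chosen after their values were seen. Alternatives were promoters alone, an overlap of 500 bp, a MACS score of 100, single replicates, either replicate, and other choices of region.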

Additional observations from a re-analysis of the deposited data

How the results depend on the processing

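Among the counts and medians recomputed under each alternative, all but these stayed within 1.5 times the reported count or 0.1 of the reported median difference. With a MACS score of at least 100, the members with EZH2 in shCTR numbered 12 (1.29% of all protein-coding genes), beside 20. Those with SUZ12 numbered 3 (0.109%), beside 6. This score was applied only to lists that carry MACS scores. It left replicate 1 of PHF19 and of MTF2 unfiltered, so it could not test the peaks of those lists. With a peak in either replicate, SUZ12 was found at 12 members (1.81%) and MTF2 in shCTR at 53 (49.8%). Leaving out a replicate gave 7 to 11 members for SUZ12 and 25 to 53 for MTF2 in shCTR, since it removes the requirement that both lists hold a peak. The ranges for the other calls were 28 to 39 for PHF19, 21 to 26 for EZH2, 40 to 41 for H3K27me3 in shCTR, 38 to 48 for H3K27me3 in shPHF19L#4 (19.2% and 29.0% of all protein-coding genes) and 37 to 53 for MTF2 in shPHF19L#4 (10.5% and 51.0%). With promoters alone, PHF19 was called at 21 members (2.56%), EZH2 at 17 (1.77%), SUZ12 at 4 (0.188%), H3K27me3 at 30 (8.83%) and MTF2 at 19 (3.70%) in shCTR. In shPHF19L#4, H3K27me3 was called at 36 (12.9%) and MTF2 at 33 (7.35%). Median differences of EZH2 ranged from 1.02 to 1.06, those of MTF2 from 0.78 to 0.81 and those of SUZ12 from 0.90 to 0.92, and that of H3K27me3 was 1.08 throughout. No paired analysis was possible because the tables of concentrations hold group means only, and covered shares, compared within each replicate, carry no test. Peak lists differ in size widely between replicates of PHF19 and MTF2, and the list that touches fewer members limits each call, though it equals the call only for MTF2 and for H3K27me3 in shPHF19L#4.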
